A study of Mus musculus with 20 samples.

Results

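This comparison set GFP-low cells against GFP-high cells of small-intestinal crypts in 5 wild-type mice, 10 of the 20 RNA sequencing libraries of the series. Its members are the 11296 genes with a name that occurred once in each of the deposited GFP-high and GFP-low tables, and 11293 of them passed the filter on low counts. The mice were 8-week-old C57BL/6J animals of genotype Itgb7+/+ that carried Lgr5-GFP, a green fluorescent reporter of the stem cell receptor gene Lgr5. The labels do not say which reporter allele was used. Crypts were freed with EDTA and dissociated. Live cells (7AAD-) that were EpCAM+ and lacked CD45, CD31 and TER119 were sorted by GFP, a gate meant to keep epithelium and to remove blood and endothelial cells. All groups share the reporter and that gate, and cells without GFP are not among the samples. The submitters called GFP-high cells stem cells and GFP-low cells transit-amplifying (TA) cells. The mice bore the numbers 1, 3, 6, 7 and 8, with 1 library of either population for each number. Libraries are paired by number here, though the labels do not say that equal numbers are 1 animal. Values in lists of 5 below follow that order of numbers. The other 10 libraries of the series came from Itgb7-/- mice and enter only where the difference between genotypes is given.

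The intestinal epithelium renews itself from stem cells at the crypt base, which express Lgr5 and depend on Wnt signals, many of them from the Paneth cells that lie between them. Daughters of stem cells leave the base, divide a few more times as TA cells, and are committed to the absorptive lineage where Notch signalling is on, or to secretory lineages (goblet, Paneth, enteroendocrine and tuft cells) where Notch ligands are made and the factor Atoh1 is active. GFP protein outlives the shut-off of its gene and is diluted at each division, which is why a low level of GFP is used to take recent daughters of stem cells. Paneth cells themselves are long-lived secretory cells of the crypt base and do not divide.

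Total counts per library lay between 21465693 and 26724362. Levels are given in CPM, a gene's counts scaled to a fixed library size, with factors from TMM, a method that sets the libraries on a common scale from the bulk of their genes. Changes are log2 fold changes of GFP-low over GFP-high, with the mouse as a block, ± the standard error (SE). A gene is said to rise or fall where the quasi-likelihood test of edgeR gave an adjusted p under 0.05 over all 11293 genes. Lgr5, the gene behind the sort, checks the gate and is no finding: its level was 83.0, 90.5, 128, 107 and 82.5 CPM in GFP-high and 18.7, 18.3, 14.0, 4.85 and 6.59 CPM in GFP-low cells. The 5 GFP-low libraries all lay below the 5 GFP-high libraries, with the lowest values in mice 7 and 8. The log2 fold change of Lgr5 (GRCm38, chr10:115450311-115587780) was -3.10 ± 0.29. Of the cell types that the gate should remove, 6 of 29 listed T cell genes, 1 of 13 B cell genes, 4 of 21 myeloid genes, 2 of 21 stromal and endothelial genes and 0 of 6 red cell genes were tested. Their summed shares of counts were small: T cell genes took 0.000696% to 0.00693% of a library. The defining genes Cd3e of T cells and Ptprc of blood cells were not among the genes tested here. The T cell share, on the scale of library totals, was lower in GFP-low cells in 5 of 5 mice. With TMM 1 of the 6 T cell genes fell and none rose. Their median log2 difference within mice was then 0.0844, -1.38, 0.219, -0.0681 and -0.105. The myeloid and stromal sums were higher in 5 of 5, at 0.00230% to 0.00592% and 0.000361% to 0.00325%. Lyz2, which Paneth cells also make, is among the 4 myeloid genes, and Vim was 1 of the 2 stromal genes. The part of such cells in the results below was not tested. The 13 mitochondrially encoded transcripts gave no call (median log2 fold change -0.0454, from -0.620 to 0.341 within mice). Their share of all counts, which TMM does not adjust, was lower in GFP-low cells in 5 of 5 mice, at 5.45 ± 1.37% in GFP-high and 3.93 ± 1.62% in GFP-low libraries (mean ± SD, n = 5). When libraries were scaled by their totals alone 8 of the 13 fell. The part of RNA quality in the results was not tested.

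The populations differed in a large part of the genes tested. Of 11293 genes, 5845 (51.8%) passed, with 2925 rising (25.9%) and 2920 falling (25.9%). In all 5 mice the same direction was seen for 2677 of the rising and 2651 of the falling genes. Many changes were modest: 2710 of the 5845 (46.4%) were under 1.5-fold. A change shown to exceed 2-fold by the glmTreat test of edgeR (adjusted p under 0.05) was found for 508 rising genes (4.50%) and 127 falling genes (1.12%). All 5 GFP-low libraries lay above all 5 GFP-high libraries for 1695 genes (15.0%), and below them for 1553 genes (13.8%). The first principal component of log2 CPM held 59% of the variance and separated the populations. Each population was deposited in a table of its own, so an effect of how a table was made cannot be told apart from the population. In bulk samples such as these, fewer cells of a type and less RNA per cell of it cannot be told apart either.

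The scaling matters for the balance of rises and falls. Paneth and goblet transcripts took a larger share of the counts of every GFP-low library than of the GFP-high library of the same mouse. When libraries were scaled by their totals alone the median log2 fold change of all genes was -0.38 in place of -0.016. Under that scaling 1435 genes rose and 5581 fell. Changes below are therefore relative to the median gene. The median changed sign under library totals for 12 of 57 gene lists, each from above to below 0, and more of their genes then fell than rose. The values under that scaling are given beside those lists.

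The 10 largest rises among well-expressed genes were larger in log2 fold change than the 10 largest falls. Gsta1, a glutathione transferase, had a log2 fold change of 4.88 ± 0.17, Apoa1, the apolipoprotein of HDL, 4.51 ± 0.25, and Rbp2, the retinol-binding protein of enterocytes, 4.48 ± 0.20. Zg16, a lectin of mucus granules, rose by 4.39 ± 0.31, the antimicrobial-type lectin Reg1 by 4.29 ± 0.19, sucrase-isomaltase (Sis) by 4.21 ± 0.24 and Papss2, which makes the sulphate donor for mucins, by 4.18 ± 0.13. Apol10a (3.93 ± 0.19), the mucus protease Clca1 (3.85 ± 0.23) and the fatty acid binding protein Fabp1 (3.84 ± 0.21) completed the 10. The 10 largest falls were the secreted glycoprotein gene Fstl1 (-3.16 ± 0.25), Lgr5, the gastrokine gene Gkn3 (-2.78 ± 0.19), Olfm4 (-2.61 ± 0.19), the sodium channel subunit Scn2b (-2.41 ± 0.21), the urea transporter Slc14a1 (-2.41 ± 0.13), Igfbp4 (-2.40 ± 0.10), Ascl2 (-2.33 ± 0.14), the nuclear receptor gene Nr2e3 (-2.26 ± 0.12) and the neuron navigator gene Nav1 (-2.12 ± 0.12). All but Nr2e3 of these falling genes are in the stem cell list.

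Stem cell genes fell almost as a whole. Of 40 listed genes, 38 were tested, 36 fell, 24 of these by more than 2-fold, and the median log2 fold change was -1.81. The list holds markers drawn from work on Lgr5-GFP sorts of this kind, so its direction is close to what the gate selects. In 35 of the 38 the GFP-low libraries all lay below the GFP-high libraries, which held for 13.8% of all genes tested. Olfm4 (GRCm38, chr14:79984081-80023139), a secreted glycoprotein of crypt-base cells, was at 2456, 2692, 2714, 3623 and 2651 CPM in GFP-high and 641, 544, 394, 581 and 255 CPM in GFP-low cells. Ascl2, the Wnt-driven factor that maintains stem cells, was at 29.0, 26.4, 32.5, 26.3 and 30.2 CPM against 6.41, 6.25, 4.84, 6.50 and 4.72 CPM. Both were lower by a factor of more than 3 in each of the 5 mice, and mouse 8 had the lowest GFP-low level of both. The members with the smallest p were Igfbp4, an IGF-binding protein, Slc12a2, the basolateral Na-K-Cl cotransporter (-1.67 ± 0.079), Slc14a1, Cdca7 (-1.97 ± 0.11) and the matrix protein Smoc2 (-1.65 ± 0.095). The 2 members without a call were Phlda1 (-0.078 ± 0.15) and the microsomal transferase Mgst1 (0.033 ± 0.091). The median of the list within a mouse was -1.34, -1.52, -2.08, -1.83 and -2.05, least in mouse 1. The stem list took 1.12 ± 0.15% of counts in GFP-high and 0.27 ± 0.060% in GFP-low libraries (mean ± SD, n = 5).

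Of 9 genes reported for reserve stem cells, 7 fell, Krt19 rose and Krt15 had no call (median -0.776). The median fall was smaller than that of the stem list. Lrig1, a brake on EGF receptors that is in both lists, changed by -1.10 ± 0.096, Sox9 by -1.21 ± 0.13, Hopx by -0.63 ± 0.090 and the RNA-binding protein Mex3a by -1.28 ± 0.19. No member of this list passed the test for a change over 2-fold.

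**Figure D1:**
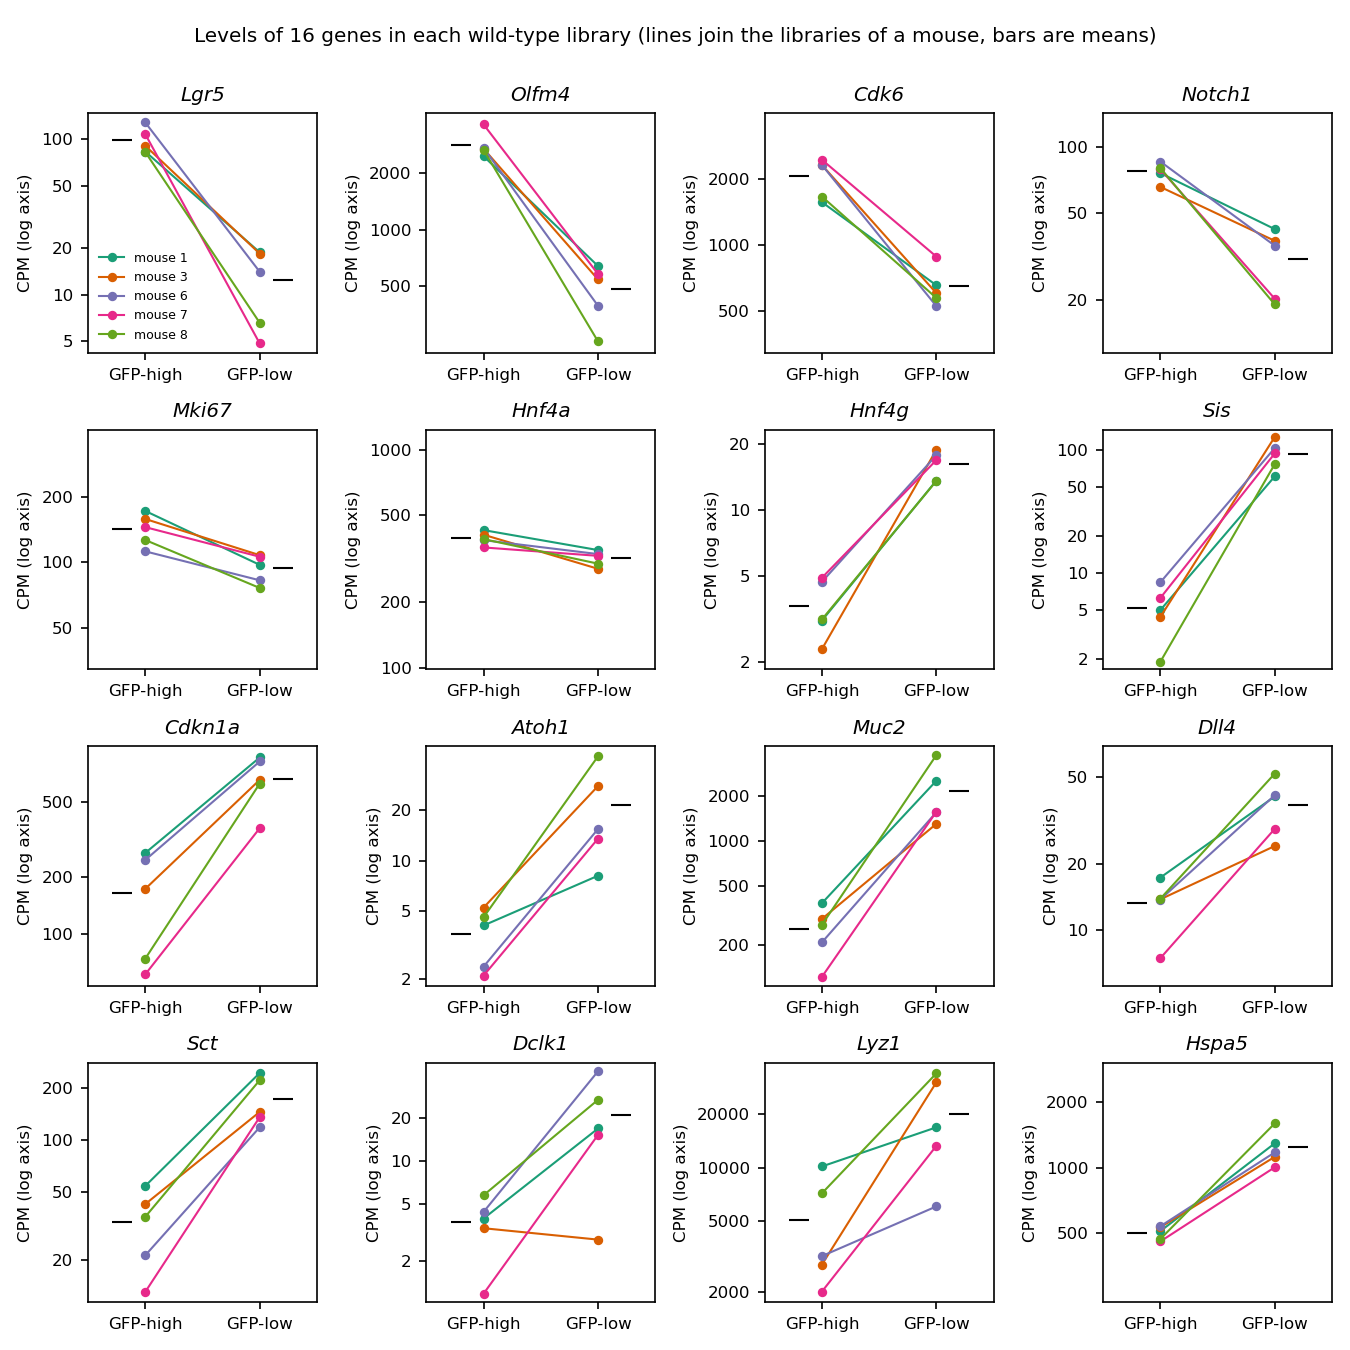
Levels in CPM (log axis) of 16 genes in GFP-high and GFP-low libraries, with a line for each of the 5 mice and a black bar at each mean. Stem and Notch receptor genes fall in every mouse, Hnf4a and Mki67 fall by little, and Dclk1 is the gene that did not rise in mouse 3.

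Wnt receptors and the targets of the pathway had more falls than rises, with single members that went the other way. In the core of the pathway falls were about as frequent as among all genes tested. Among 13 ligands, receptors and their regulators 7 fell, 2 rose and 4 had no call (median -0.416). The Frizzled receptor gene Fzd7, reported as needed in Lgr5+ cells, was at 9.70, 9.48, 11.02, 6.04 and 7.20 CPM in GFP-high and 4.36, 2.12, 3.51, 2.86 and 1.81 CPM in GFP-low cells, a log2 fold change of -1.58 ± 0.20. Fzd2 (-2.03 ± 0.28) and the receptor kinase gene Ror2 (-1.15 ± 0.18) fell as well. Fzd5 went the other way, from 14.1, 15.8, 16.3, 17.7 and 15.3 CPM to 19.4, 28.9, 27.3, 24.5 and 20.5 CPM (0.59 ± 0.10). All GFP-low libraries were above the GFP-high ones for Fzd5 and below them for Fzd7 and Fzd2. Fzd5 did not pass with library totals alone (0.23 ± 0.16). The co-receptor genes Lrp5 (-0.33 ± 0.20) and Lrp6 (-0.059 ± 0.092) and the R-spondin receptor gene Lgr4 (-0.21 ± 0.12) had no call. Wnt3, a ligand that Paneth cells supply and that is also in the Paneth list, was at 37.1, 28.4, 21.5, 14.3 and 30.2 CPM against 71.4, 73.6, 33.5, 44.6 and 94.5 CPM and rose by 1.25 ± 0.15. It was higher in each mouse, though the groups overlapped because mouse 6 had a low value in GFP-low cells.

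In the core of the pathway, where beta-catenin is degraded or acts with its DNA-binding partners, 10 of 16 genes had no call, 4 fell and 2 rose (median -0.118). These are 25% falls and 12.5% rises, against 25.9% each way among all genes tested. The T cell factor genes that bind beta-catenin on DNA differed in direction. Tcf7 was at 6.01, 7.78, 9.28, 9.06 and 7.28 CPM in GFP-high and 2.68, 2.42, 1.46, 1.89 and 2.33 CPM in GFP-low cells (-1.87 ± 0.23), with no overlap. Tcf7l2, the main intestinal member, was at 133, 167, 169.7, 201 and 221 CPM against 190.2, 369.9, 197, 234 and 326 CPM and rose by 0.53 ± 0.13, with overlapping groups and its largest difference in mouse 3. With library totals alone it did not pass (0.17 ± 0.14). Bcl9l, a beta-catenin co-factor, changed by -0.75 ± 0.11, Axin1 by -0.34 ± 0.090 and Ctnnbip1, an inhibitor of beta-catenin, by 0.53 ± 0.096 (no call with library totals alone). In this core list no gene rose and 9 fell with library totals alone.

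Of 18 target genes of the pathway 13 fell, 7 by more than 2-fold (median -1.05), and 4 of the list had no call, Ccnd1, Ccnd2, Nkd1 and Kremen1. The falls with the smallest p were Ascl2, the adhesion receptor Cd44 (-1.83 ± 0.11), Sox4 (-1.60 ± 0.10), the ephrin receptor Ephb3 (-1.09 ± 0.074) and Axin2, the feedback inhibitor (-1.99 ± 0.14). Prox1, a factor of enteroendocrine cells that is also a Wnt target, was the exception. Its level was 2.86, 1.49, 3.33, 0.739 and 1.25 CPM in GFP-high and 8.41, 3.60, 7.07, 3.40 and 6.70 CPM in GFP-low cells (1.67 ± 0.24), with no overlap between the groups.

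Eph receptors and ephrins sort cells along the crypt, receptors at the base and ephrin-B ligands above. Among 13 genes 6 fell, 4 rose and 3 had no call. These are 46.2% falls and 30.8% rises, against 25.9% each way among all genes tested. Ephb3 fell by about the same amount in every mouse (-1.10, -1.18, -1.13, -0.98 and -1.08). Its ligand Efnb2 was at 2.00, 1.56, 3.48, 1.221 and 1.02 CPM in GFP-high and 9.50, 13.0, 13.2, 6.84 and 9.44 CPM in GFP-low cells and rose by 2.55 ± 0.21, each GFP-low library above each GFP-high one. Efnb1 rose by 0.35 ± 0.090 (-0.0093 with library totals alone) and Epha2 by 0.73 ± 0.11, while Efna4 (-1.84 ± 0.17), Epha4 (-1.50 ± 0.18) and Ephb4 (-0.83 ± 0.12) fell. Of the 13, 2 rose and 7 fell with library totals alone.

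The Notch receptor genes Notch1 and Notch2 fell, and the ligand genes Dll4, Dll1 and Jag1 rose. The Notch list as a whole had 6 rises, 8 falls and 11 genes without a call among 25, with a median of -0.00537 that was 0.000837 with DESeq2 size factors. Of its genes 24% rose and 32% fell, near the 25.9% each way among all genes tested. With library totals alone 1 of its genes (Dll4) rose and 13 fell, so neither Dll1 nor Jag1 passed. Notch1 was at 76.1, 65.7, 85.9, 79.3 and 80.3 CPM in GFP-high and 42.1, 37.2, 35.3, 20.2 and 19.004 CPM in GFP-low cells (-1.39 ± 0.19), with no overlap and the lowest GFP-low values in mice 7 and 8. Notch2 (-1.05 ± 0.16), the target Hes1 (-0.89 ± 0.20) and Dtx4, a ubiquitin ligase gene of the Deltex family (-1.45 ± 0.11), fell. The ligand Dll4 was at 17.3, 13.8, 13.7, 7.39 and 13.8 CPM against 40.8, 24.2, 41.3, 29.0 and 51.9 CPM and rose by 1.502 ± 0.16, again without overlap. Dll1 (0.64 ± 0.18) and Jag1 (0.40 ± 0.12) rose, Dll1 in all mice but mouse 3. Without mouse 8 neither passed (edgeR adjusted p = 0.0529 and 0.0541), and without mouse 7 Jag1 did not (0.0672). Dll4 is also in the Paneth list. Psen2 (0.36 ± 0.085), a subunit of the protease that cleaves Notch, rose as well, but not with library totals alone, where it was at -0.0063.

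The BMP list (4 rises, 7 falls, 20 tested) and the EGF receptor list (3 rises, 4 falls, 17 tested) were mixed, with medians of -0.130 and -0.0639. In the BMP list 20% rose and 35% fell, in the EGF receptor list 17.6% and 23.5%, against 25.9% each way among all genes tested. In the first, Rgmb (-2.06 ± 0.15), the receptor gene Acvr2b (-0.94 ± 0.12) and Smad4 (-0.57 ± 0.074) fell and Id3, a target of the pathway, rose (0.55 ± 0.094). In the second, Nrg4, a ligand of ERBB4, fell (-1.56 ± 0.20), while the feedback inhibitors Errfi1 (1.09 ± 0.10) and Dusp6 (1.06 ± 0.17) rose. No BMP gene rose with library totals alone. In the Hippo list 8 of 19 genes fell, among them Yap1 (-0.66 ± 0.094), Tead2 (-1.40 ± 0.22) and the revival cell marker Clu (-1.19 ± 0.22). The 2 rises of that list were large, Anxa3 (3.59 ± 0.28) and Ly6a (2.51 ± 0.28).

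Genes of the dividing cell were lower in GFP-low cells, by less than the stem cell genes. Among 59 genes of S phase 49 fell and Rrm2 rose by 0.31 ± 0.080, which was -0.051 with library totals alone (median -0.650). Among 67 genes of G2 and mitosis 63 fell and none rose (median -0.599). Mki67, the proliferation marker, was at 172, 158, 112, 145 and 126 CPM in GFP-high and 97.3, 108, 82.6, 106 and 76.2 CPM in GFP-low cells, which is 1.51-fold lower. The groups did not overlap, though the lowest GFP-high library, of mouse 6, lay close to the highest GFP-low library. Among the S phase genes with the smallest p were the DNA ligase Lig1 (-0.74 ± 0.082), Rpa2 (-0.83 ± 0.094) and the helicase subunit Mcm2 (-0.88 ± 0.10). Pcna (-0.19 ± 0.083) had no call. In the mitotic list Psrc1, a spindle protein and reported Wnt target, had the smallest p and fell by more than 2-fold (-1.87 ± 0.14), followed by Cenpf (-0.93 ± 0.078), the condensin subunit Ncapd2 (-0.84 ± 0.082), the kinesin Kif2c (-1.01 ± 0.10) and Racgap1 (-0.83 ± 0.088). List medians within mice ran from -0.762 to -0.464 for S phase and from -0.747 to -0.438 for G2/M.

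Regulators of the G1 phase gave both directions. Of 27 genes 9 fell, 6 rose and 12 had no call, and with library totals alone 16 fell and 4 rose. The 33.3% that fell and 22.2% that rose are near the 25.9% each way among all genes tested. The kinase gene Cdk6, which drives entry into S phase, was at 1573, 2328, 2328, 2461 and 1669 CPM in GFP-high and 654, 601, 525, 885 and 572 CPM in GFP-low cells (-1.68 ± 0.14). The related kinase gene Cdk4 fell as well (-0.71 ± 0.11). The inhibitor gene Cdkn1a, which encodes p21, was at 268, 173, 246, 61.3 and 74.2 CPM against 857, 653, 817, 363 and 624 CPM, a rise of 2.18 ± 0.19. For both Cdk6 and Cdkn1a the groups did not overlap, and GFP-high cells of mice 7 and 8 had the lowest Cdkn1a. The retinoblastoma gene Rb1 rose by 1.37 ± 0.17 and E2f2 by 1.36 ± 0.13. The cyclin genes Ccnd1 (-0.15 ± 0.11) and Ccnd2 (0.12 ± 0.10) had no call.

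Many mitotic genes share a short promoter element, the cell cycle homology region (CHR), which the repressor complex DREAM reads. The letters TTTGAA, on either strand, were looked for in the 300 bases from 250 before to 50 after the start site, in RefSeq promoters of build GRCm38.p6. A promoter was found by symbol for 8696 of the 11293 genes and for 55 of the 67 G2/M genes. The letters were in 37 of those 55 (67.3%) and in 1258 of all 8696 (14.5%). The median log2 fold change was -0.60 in the 37 genes with the letters and -0.55 in the 18 without them. The bases just before the start site are shown for the 4 members with the smallest p that held the letters there, 5′ to 3′ on the gene's strand, with the matched letters in capitals:
Ncapd2: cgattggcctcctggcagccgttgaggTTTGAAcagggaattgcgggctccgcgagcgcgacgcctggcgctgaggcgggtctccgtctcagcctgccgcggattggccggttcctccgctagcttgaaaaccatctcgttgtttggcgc
Kif2c: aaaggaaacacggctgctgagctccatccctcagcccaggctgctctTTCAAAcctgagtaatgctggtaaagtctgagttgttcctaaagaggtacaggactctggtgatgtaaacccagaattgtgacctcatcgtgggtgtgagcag
Ube2c: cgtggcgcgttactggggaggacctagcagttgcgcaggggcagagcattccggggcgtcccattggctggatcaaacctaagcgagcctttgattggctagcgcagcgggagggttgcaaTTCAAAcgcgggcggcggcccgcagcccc
Mki67: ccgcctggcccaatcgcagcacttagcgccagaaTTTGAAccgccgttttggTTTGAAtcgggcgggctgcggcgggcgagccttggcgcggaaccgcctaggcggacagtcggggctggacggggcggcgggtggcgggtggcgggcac
These windows of 150 bases end at the base before the start site and lie at chr6:125191587-125191736 (minus strand), chr4:117178773-117178922 (minus), chr2:164769779-164769928 (plus) and chr7:135716380-135716529 (minus). The 4 genes had log2 fold changes of -0.84 ± 0.082, -1.01 ± 0.10, -0.67 ± 0.085 and -0.60 ± 0.084. The promoter of Mki67 holds the letters at 2 places.

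The machinery that makes ribosomes was also lower. Of 54 ribosome biogenesis genes 45 fell and 1 rose (median -0.503), with Rrp1b (-0.94 ± 0.084) and nucleophosmin, Npm1 (-0.77 ± 0.096), among the smallest p. Of 82 ribosomal protein genes 64 fell and 1 rose (median -0.426), and Rpl22 (-0.75 ± 0.075) had the smallest p. The rise was that of Rpl36al (0.45 ± 0.085), which did not pass with library totals alone. Within mice the ribosomal median was -0.421, -0.146, -0.374, -0.468 and -0.610, nearest to 0 in mouse 3. Many ribosomal protein genes have near-identical pseudogenes, between which reads may be split. Of 256 zinc finger genes with Zfp names 97 fell and 11 rose (median -0.272), and with library totals alone 168 fell and 3 rose.

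**Figure D2:**
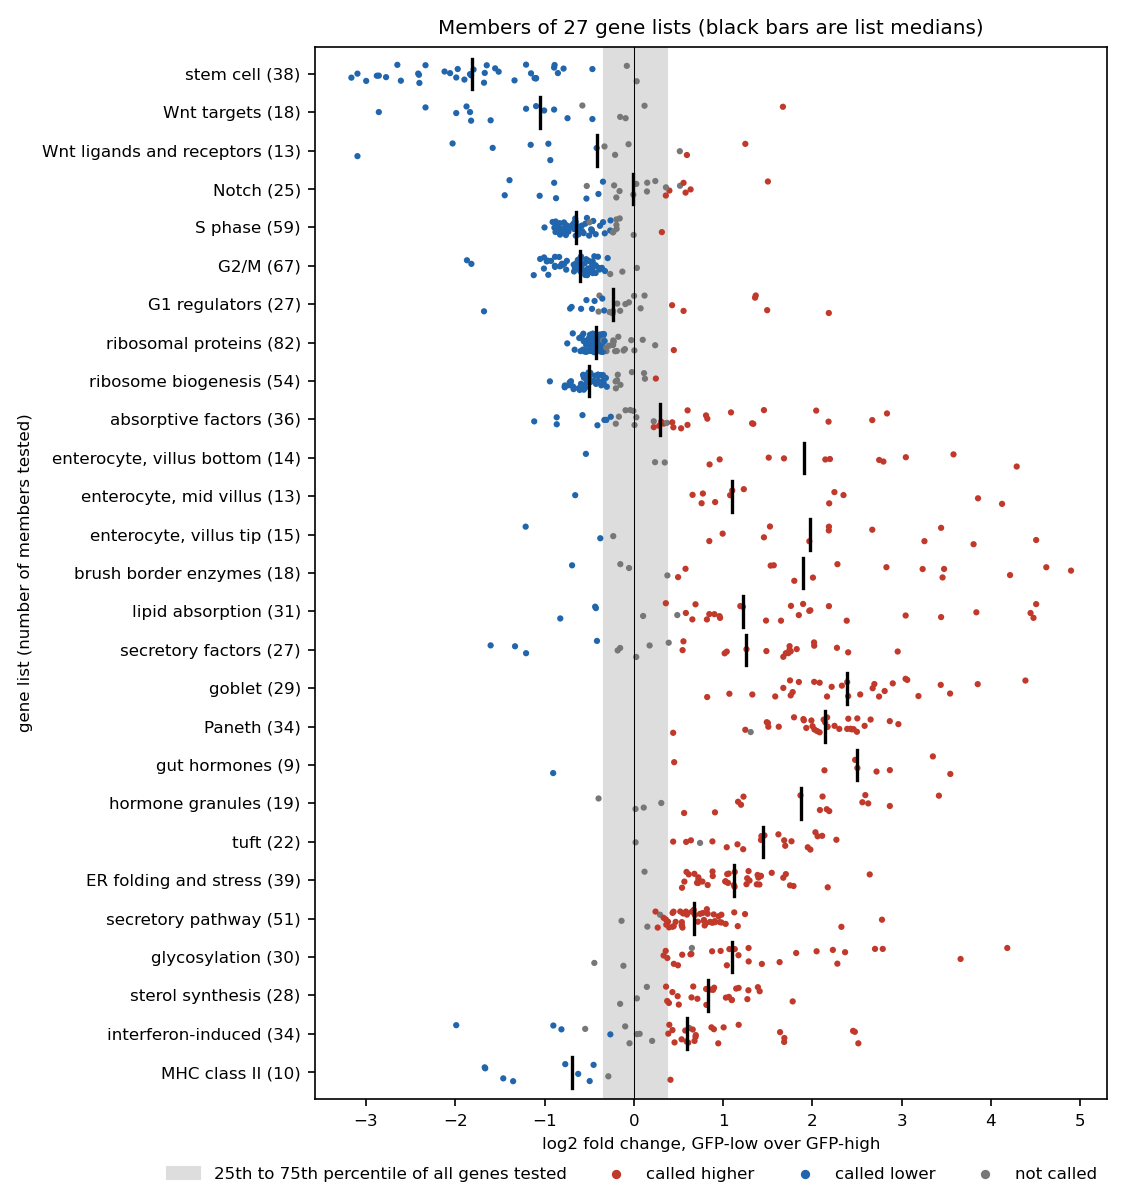
Log2 fold changes of the members of 27 gene lists, 1 point per gene, with red for genes that rose, blue for genes that fell, grey for no call and a black bar at each median. The grey band runs from the 25th to the 75th percentile of all 11293 genes (-0.338 to 0.377), with the stem median below it and the goblet and Paneth medians above.

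Transcription factors of the absorptive lineage had more rises than falls with TMM. Of 36 tested 19 rose, 8 fell and 9 had no call (median 0.295). These are 52.8% rises and 22.2% falls, against 25.9% each way among all genes tested. With library totals alone 10 rose, 12 fell and the median was -0.0690. The pair of HNF4 factors, nuclear receptors that drive enterocyte genes, differed in direction. Hnf4g (GRCm38, chr3:3508030-3658052) was at 3.11, 2.30, 4.68, 4.88 and 3.15 CPM in GFP-high and 13.6, 18.9, 17.8, 16.9 and 13.6 CPM in GFP-low cells (2.18 ± 0.18). Hnf4a, its paralogue, was at 428, 408, 385, 356 and 389 CPM against 347, 284, 332, 326 and 300.2 CPM, a small fall of -0.31 ± 0.084. Neither gene's groups overlapped. Other rises were those of the nuclear receptors Nr1i3 (2.04 ± 0.14) and Nr1h4, the bile acid sensor FXR (1.34 ± 0.11), and of Maf (2.84 ± 0.28). Factors that fell were the vitamin D receptor Vdr (-1.12 ± 0.11) and Ehf (-0.86 ± 0.093), with Cdx2, which sets intestinal identity, at -0.41 ± 0.094. Cdx1 (-0.092 ± 0.077) had no call.

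Most listed enterocyte genes of each zone of the villus were higher in GFP-low cells. The zones are those along which enterocytes change their programme as they move up: an antimicrobial programme at the bottom, nutrient transport in the middle and lipoprotein and purine handling at the tip. Of 14 bottom genes 11 rose and 1 fell (median 1.91), of 13 mid-villus genes 12 rose and 1 fell (1.10) and of 15 tip genes 12 rose and 2 fell (1.97). At the bottom, Reg1, Gsdmc4, a gasdermin (3.05 ± 0.16), Lypd8, which keeps bacteria off the epithelium (1.51 ± 0.10), and Reg3b (2.197 ± 0.21) rose and the inflammasome gene Nlrp6 fell (-0.54 ± 0.13). The neutral amino acid transporter gene Slc6a19 was at 1.39, 1.03, 1.51, 1.61 and 0.872 CPM in GFP-high and 18.6, 21.2, 38.9, 19.5 and 17.1 CPM in GFP-low cells (4.13 ± 0.18). Slc6a20a (3.86 ± 0.17), the fructose transporter gene Slc2a5 (2.19 ± 0.10) and Slc7a9 (2.35 ± 0.12) rose too, while Slc16a10, an aromatic amino acid carrier, fell (-0.66 ± 0.16).

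Tip genes showed the same rise. Krt20, the keratin of mature cells, was at 20.4, 24.7, 24.0, 15.0 and 12.6 CPM against 247, 341, 261, 222 and 256 CPM (3.81 ± 0.13). Apoa1 was at 16.3, 24.3, 33.3, 31.7 and 12.1 CPM against 675, 802, 623, 347 and 265 CPM. For both genes the lowest GFP-low library lay far above the highest GFP-high library. Mttp, which loads lipid onto apolipoprotein B (1.97 ± 0.11), Apoa4 (3.44 ± 0.26) and Ceacam20 (3.26 ± 0.23) rose. The tip genes that fell were the nucleoside transporter gene Slc28a2 and Egfr (-0.38 ± 0.12), the latter not without mouse 1, 7 or 8 (edgeR adjusted p = 0.0571 to 0.0767). Slc28a2 was at 12.8, 14.4, 15.2, 20.6 and 14.7 CPM in GFP-high and 7.00, 5.19, 4.67, 8.97 and 8.22 CPM in GFP-low cells (-1.21 ± 0.15), without overlap. Ada (-0.23 ± 0.13) had no call.

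In the list of brush border digestive enzymes, which also holds Amn, a gene that encodes no enzyme, 14 of 18 genes rose (median 1.90). Sis, which splits sucrose, was at 4.99, 4.39, 8.39, 6.26 and 1.90 CPM in GFP-high and 61.2, 128, 104, 94.0 and 76.9 CPM in GFP-low cells. The aminopeptidase genes Enpep (3.48 ± 0.14) and Anpep (2.01 ± 0.12) and the meprin subunit Mep1b (3.24 ± 0.18) rose. Dpp4 (-0.15 ± 0.13), Mep1a (-0.053 ± 0.15) and Amn (0.38 ± 0.23) had no call and Enpp1 fell (-0.69 ± 0.13). The meprin subunit genes thus differed, with 4.58 ± 1.43 CPM against 44.0 ± 15.7 CPM for Mep1b and 14.8 ± 2.71 CPM against 14.3 ± 3.17 CPM for Mep1a (GFP-high against GFP-low, mean ± SD, n = 5).

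Of 26 genes of the microvillus 16 rose and 3 fell (median 0.664). The intermicrovillar cadherin Cdhr5 (1.76 ± 0.083), brush border myosin Myo1a (1.42 ± 0.093) and espin, Espn (2.14 ± 0.16), rose. The plastins, which bundle actin, differed in direction. Pls1, the intestinal form, was at 76.5, 93.7, 84.0, 85.2 and 74.98 CPM in GFP-high and 150.4, 191, 135, 141 and 155 CPM in GFP-low cells (0.89 ± 0.084). Pls3 was at 8.10, 9.16, 7.93, 11.4 and 7.20 CPM against 3.64, 2.95, 2.06, 2.52 and 0.874 CPM (-1.92 ± 0.24), and the other form, Lcp1, fell too (-1.15 ± 0.14). The direction of Pls1 and Pls3 was the same in all 5 mice, and neither gene's groups overlapped.

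Most genes for the handling of lipid, bile acid and foreign compounds rose. Of 31 lipid absorption genes 26 rose (15 by more than 2-fold) and 3 fell, of 9 bile acid genes 6 rose and 1 fell, and of 33 genes of xenobiotic metabolism 23 rose and 3 fell. The ileal bile acid binding protein Fabp6 (4.44 ± 0.15), the triglyceride enzyme Mogat2 (3.05 ± 0.13), the cholesterol transporter Npc1l1 (2.39 ± 0.11) and the bile acid exporter subunits Slc51a (3.49 ± 0.12) and Slc51b (3.55 ± 0.22) were among the smallest p. Among lipid genes Acsl3 (-0.82 ± 0.17), Lrat (-0.43 ± 0.094) and the lipid droplet gene Plin2 (-0.42 ± 0.14) fell, and so did the bile acid-induced repressor Nr0b2 (-0.55 ± 0.19). Plin2 did not pass without mouse 6, 7 or 8 (edgeR adjusted p = 0.0738 to 0.094), nor Nr0b2 without mouse 3, 7 or 8 (0.112 to 0.12). The carboxylesterases Ces1f (3.66 ± 0.16) and Ces2e (2.29 ± 0.13) rose, but Ces1d fell by more than 2-fold (-2.03 ± 0.20). Reads may be split between carboxylesterase genes, which are alike in sequence. Ephx1 (-0.78 ± 0.089) and Aldh1b1 (-0.40 ± 0.099) fell. Of 24 cytochrome P450 genes 15 rose and 3 fell. Cyp3a13 (2.84 ± 0.13) and Cyp4f14 (3.64 ± 0.21) were among the rises, and Cyp2e1, which is also in the stem list, had the largest fall (-3.00 ± 0.30). Of 208 solute carriers 99 rose and 31 fell (median 0.270, against 63 rises, 68 falls and a median of -0.0916 with library totals alone).

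The secretory lineages were higher in GFP-low cells, with wide differences between mice. Of 27 transcription factors of these lineages 18 rose, 4 fell and 5 had no call (median 1.26). Within mice the median was 0.951, 0.312, 1.02, 1.85 and 2.05, smallest in mouse 3. Atoh1, which commits cells to a secretory fate, was at 4.13, 5.27, 2.36, 2.09 and 4.62 CPM in GFP-high and 8.14, 27.6, 15.4, 13.5 and 41.3 CPM in GFP-low cells (2.40 ± 0.26). All 5 GFP-low libraries were above the GFP-high ones, but by little in mouse 1. The goblet factors Spdef (2.02 ± 0.18) and Creb3l4 (1.76 ± 0.11), the secretory factor Xbp1 (1.26 ± 0.096) and the enteroendocrine factor Lmx1a (2.96 ± 0.27) rose. Sox4 (-1.60 ± 0.10), Sox9 (-1.21 ± 0.13) and Mnx1 (-1.33 ± 0.26) fell. Neurog3, the short-lived factor of enteroendocrine precursors, was at 48.2, 71.0, 32.2, 15.4 and 23.8 CPM against 85.2, 33.8, 59.5, 73.2 and 99.0 CPM (1.02 ± 0.39, edgeR adjusted p = 0.0483). It was lower in GFP-low than in GFP-high cells of mouse 3 and higher in the other mice, and it did not pass without mouse 1, 6, 7 or 8 (adjusted p = 0.0841 to 0.181).

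Goblet cell genes rose without exception among the 29 tested, 25 by more than 2-fold, with a median of 2.39. For each of the 29 all GFP-low libraries lay above all GFP-high libraries, which held for 15.0% of all genes tested. Muc2, the gel-forming mucin, was at 384, 301, 209.8, 123 and 275 CPM in GFP-high and 2551, 1310.1, 1569, 1580.4 and 3789 CPM in GFP-low cells (3.04 ± 0.23). The highest GFP-low value was that of mouse 8 and the lowest that of mouse 3. Clca1, the membrane mucin gene Muc3 (1.85 ± 0.11), S100a6 (2.75 ± 0.17) and Rep15 (3.19 ± 0.20) had the smallest p with Creb3l4. The list took 1.08%, 0.942%, 0.730%, 0.437% and 0.875% of counts in GFP-high and 5.39%, 3.20%, 4.54%, 3.65% and 7.04% in GFP-low libraries.

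Paneth cell genes rose in 33 of 34 cases, with a median of 2.14, and Egf was the gene without a call (1.31 ± 0.54). Lyz1, the lysozyme of their granules, was at 10161, 2863, 3194, 2019.6 and 7185 CPM in GFP-high and 16843, 30135, 6067, 13268 and 33818 CPM in GFP-low cells (2.00 ± 0.36). The groups overlapped: the GFP-high libraries of mice 1 and 8 exceeded the GFP-low library of mouse 6. The median of the list within a mouse was 0.845, 3.46, 0.919, 2.76 and 2.34, so mouse 3 rose most and mice 1 and 6 least. Mptx1, a pentraxin (2.96 ± 0.24), Guca2b (1.99 ± 0.19), the chemokine Ccl6 (2.39 ± 0.23) and Lyz2 (2.25 ± 0.23) had the smallest p, and the defensin Defa24 reached 2.17 ± 0.48. Paneth genes made up 8.55%, 2.85%, 4.93%, 2.27% and 7.33% of counts in GFP-high and 12.2%, 26.1%, 7.94%, 13.6% and 25.3% in GFP-low libraries. The GFP-low libraries of mice 3 and 8 stood highest, and GFP-high cells of mouse 1 carried the most among GFP-high libraries. Defensin genes are near-identical, so single members are uncertain while their sum is less so. Without mice 3 and 8, a setting chosen after these shares were seen, 4322 genes were called in all, 31 of 34 Paneth genes rose and the list's median was 1.5.

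**Figure D3:**
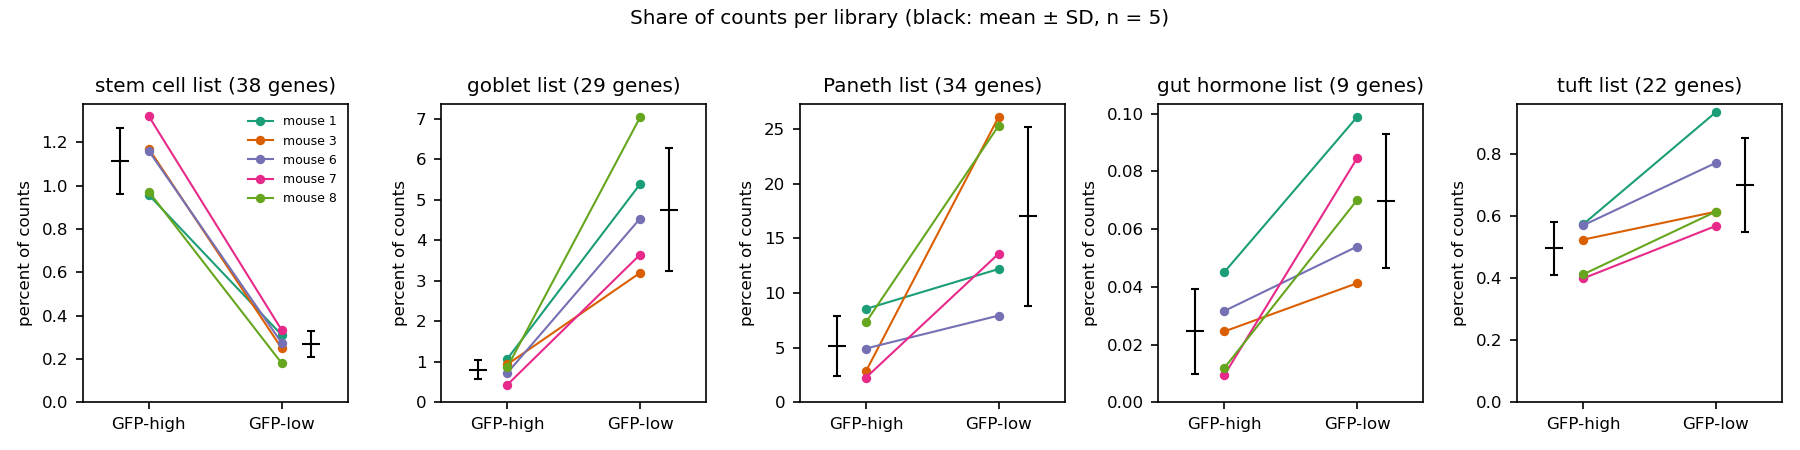
Share of all counts, in percent, taken by the stem, goblet, Paneth, gut hormone and tuft lists in each library, with a line per mouse and black marks for mean ± SD (n = 5). The Paneth share of GFP-low cells ranged from 7.94% in mouse 6 to 26.1% in mouse 3, and the stem share fell in all 5 mice.

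Granule genes were among the most counted transcripts. In GFP-high cells the 5 highest, mitochondrial transcripts aside, were Sod1 (1.42 ± 0.21% of counts, mean ± SD, n = 5), the lectin Itln1 (1.37 ± 0.66%), Defa24 (1.31 ± 0.74%), Eef1a1 (0.93 ± 0.19%) and Ubb (0.79 ± 0.081%). In GFP-low cells they were Defa24 (4.53 ± 2.41%), Itln1 (3.76 ± 1.41%), Lyz1 (1.67 ± 0.78%), Zg16 (1.51 ± 0.53%) and Defa17 (1.36 ± 0.83%). All 5 of the latter are products of Paneth or goblet cells, and a share of counts grows with transcript length as well as with the number of molecules.

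Enteroendocrine genes rose too. Of 9 hormone genes 8 rose and Edn1, an endothelin not specific to these cells, fell (-0.90 ± 0.11). The median was 2.50. Sct, encoding secretin, was at 53.8, 42.2, 21.3, 13.0 and 35.6 CPM in GFP-high and 244, 145, 118, 135 and 222 CPM in GFP-low cells (2.48 ± 0.19), with no overlap. Gcg, the precursor of glucagon-like peptides (2.87 ± 0.28), Sst, somatostatin (3.35 ± 0.36), and Tac1, substance P (2.50 ± 0.30), rose. Of 19 genes for hormone granules and their sensors 15 rose and none fell (median 1.87), among them Chga (2.87 ± 0.28), Scg2 (3.42 ± 0.35) and the short-chain fatty acid receptor gene Ffar2 (2.16 ± 0.22). Within mice the hormone medians were 1.83, 1.78, 2.28, 3.37 and 3.58, largest in mice 7 and 8. The summed hormone share of counts in GFP-high libraries was 0.0452%, 0.0246%, 0.0317%, 0.00954% and 0.012%, lowest in these same mice. In GFP-low libraries it was 0.0989%, 0.0413%, 0.054%, 0.0846% and 0.0701%, highest in mouse 1.

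Tuft cell genes rose in 20 of 22 cases (median 1.45), but not in every mouse. Dclk1, the tuft marker kinase, was at 3.97, 3.40, 4.41, 1.19 and 5.76 CPM in GFP-high and 16.8, 2.83, 42.1, 15.2 and 26.6 CPM in GFP-low cells (2.27 ± 0.43). GFP-low cells of mouse 3 had less Dclk1 than the GFP-high cells of 4 mice, and those of the other 4 mice had more than any GFP-high library. The channel gene Trpm5 (1.46 ± 0.33) and the lineage factor gene Pou2f3 (1.04 ± 0.32) followed the same order. Pou2f3 did not pass without mouse 1 (edgeR adjusted p = 0.0536) or with library totals alone. The median of the list within a mouse was 1.42, 0.0565, 1.72, 1.99 and 1.80. The calls with the smallest p were Krt8 (1.16 ± 0.10), Kctd12 (1.62 ± 0.19), the leukotriene synthase gene Ltc4s (1.77 ± 0.25), Lrmp (1.95 ± 0.31) and Sh2d6 (1.98 ± 0.32). Krt8 is made across the epithelium, and its counts are part of the summed tuft share. That share was 0.496 ± 0.0845% in GFP-high and 0.700 ± 0.152% in GFP-low libraries (mean ± SD, n = 5). It was higher in GFP-low cells by a factor of 1.17 in mouse 3 too. The keratin list took 0.574 ± 0.0892% and 0.843 ± 0.168%. The part of Krt8 in the tuft share was not tested. Without mice 3 and 8, 19 of the 22 rose and the median was 1.80.

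**Figure D4:**
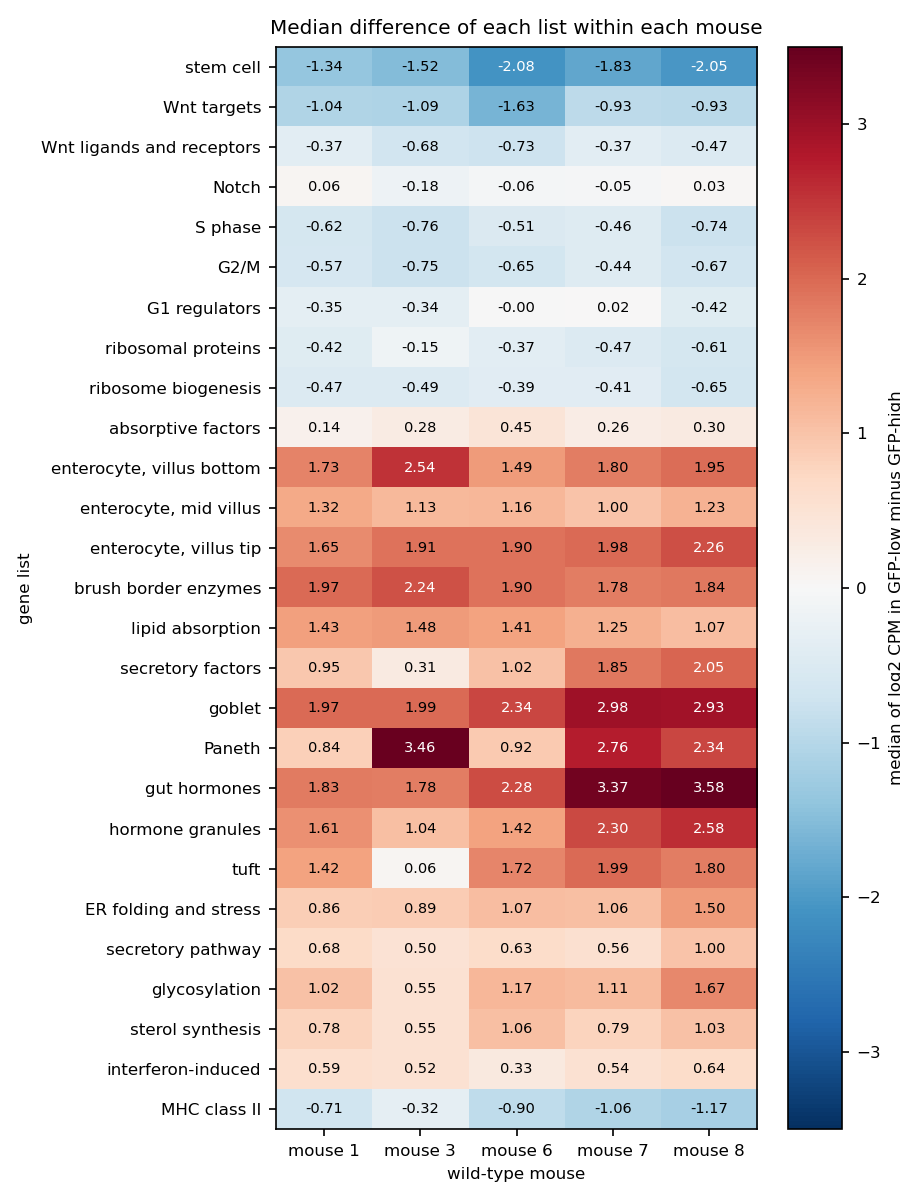
Median difference of log2 CPM, GFP-low minus GFP-high, of each of 27 gene lists (rows) within each of the 5 mice (columns), with red for higher and blue for lower in GFP-low cells. Mouse 3 has the largest Paneth median (3.46) and the smallest tuft median (0.057), and the stem row is negative throughout.

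Genes of the compartments that fold, modify and ship proteins rose almost throughout. Of 39 genes of folding and stress in the endoplasmic reticulum (ER) 38 rose and Asns had no call (median 1.12). Hspa5, the chaperone BiP, was at 512, 533, 539, 459 and 471 CPM in GFP-high and 1295, 1123, 1177, 1005 and 1597 CPM in GFP-low cells (1.29 ± 0.12), without overlap and highest in GFP-low cells of mouse 8. Chac1 (2.64 ± 0.15), Manf (1.79 ± 0.10), Selenos (1.42 ± 0.11) and the disulphide isomerase P4hb (1.42 ± 0.12) had the smallest p with Xbp1. Of 51 genes of translocation and vesicle traffic 48 rose and none fell (median 0.672). The COPII coat gene Sec24d (2.33 ± 0.16) and Kdelr3, which returns ER proteins (2.78 ± 0.19), were the members that exceeded 2-fold. Of 30 glycosylation genes 27 rose and none fell (median 1.10), among them Papss2, which makes the sulphate donor. St3gal4 (3.66 ± 0.16), Chst4 (2.79 ± 0.17) and Gal3st2 (2.28 ± 0.15), which attach sialic acid or sulphate, rose as well. With library totals alone 32, 25 and 19 of these 3 lists rose, and 0, 1 and 2 of their genes fell. The summed goblet and Paneth shares moved in the same direction in the same libraries, and their part in these rises was not tested.

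Genes that answer to ER stress often carry the ER stress response element (ERSE), bound by ATF6 and XBP1. It was searched as CCAAT, then 9 letters of any kind, then CCACG, on either strand of the same promoter windows. It was found in 9 of 32 ER genes with a promoter (28.1%) and in 16 of all 8696 genes (0.184%). All 9 of these genes rose, as did the list as a whole. The median log2 fold change was 1.03 for the 9 genes with the element and 1.26 for the 23 without it. Among the other 7 genes with the element 2 rose and 1 fell. The bases before the start site are shown for the 4 members with the smallest p that held the element there, with its letters and its spacer in capitals:
Hspa5: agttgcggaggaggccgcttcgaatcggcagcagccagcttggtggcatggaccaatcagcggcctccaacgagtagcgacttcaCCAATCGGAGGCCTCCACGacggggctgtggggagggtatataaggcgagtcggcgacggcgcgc
Dnajc3: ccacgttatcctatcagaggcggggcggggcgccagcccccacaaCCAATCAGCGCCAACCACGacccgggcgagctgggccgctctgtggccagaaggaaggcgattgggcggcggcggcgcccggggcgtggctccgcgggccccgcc
Creld2: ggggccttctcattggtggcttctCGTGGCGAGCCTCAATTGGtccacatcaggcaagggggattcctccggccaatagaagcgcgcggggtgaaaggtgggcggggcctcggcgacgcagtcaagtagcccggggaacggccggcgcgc
Pdia6: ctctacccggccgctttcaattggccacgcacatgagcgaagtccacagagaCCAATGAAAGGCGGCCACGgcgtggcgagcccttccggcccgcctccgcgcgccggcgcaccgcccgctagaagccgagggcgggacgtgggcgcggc
They lie on the plus strand at chr2:34771940-34772089, chr14:118937782-118937931, chr15:88819496-88819645 and chr12:17266439-17266588 of GRCm38.p6. The 4 genes had log2 fold changes of 1.29 ± 0.12, 1.13 ± 0.10, 1.05 ± 0.098 and 1.06 ± 0.11.

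Sterol synthesis genes rose in 25 of 28 cases and none fell (median 0.836, against 16 rises, 1 falls and a median of 0.469 with library totals alone), with Fdps (1.39 ± 0.10), Sc5d (1.10 ± 0.10), Fdft1 (0.89 ± 0.083) and Insig1 (1.28 ± 0.12) among the smallest p. The regulators Scap (-0.15 ± 0.093) and Srebf1 (0.15 ± 0.10) had no call.

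Isozymes of energy metabolism differed in direction. Of 22 genes of glycolysis and sugar handling 14 rose and 2 fell (median 0.476, against 9 rises, 4 falls and a median of 0.111 with library totals alone). Ldha, the lactate dehydrogenase subunit of glycolytic cells, was at 1681, 1932, 1387, 1839 and 1413 CPM in GFP-high and 3398, 4313, 3381, 3996 and 2949.8 CPM in GFP-low cells (1.13 ± 0.10). Ldhb was at 4.95, 8.31, 10.4, 6.52 and 6.25 CPM against 1.64, 2.53, 3.64, 1.46 and 0.758 CPM (-1.93 ± 0.23). Neither pair of groups overlapped, and both directions held in all 5 mice. Among phosphofructokinase subunits Pfkp rose (2.43 ± 0.085), Pfkm fell (-0.47 ± 0.15) and Pfkl had no call (0.16 ± 0.11). Pfkm did not pass without mouse 3, 7 or 8 (edgeR adjusted p = 0.056 to 0.0864). Pck1 (2.28 ± 0.16), Pklr (1.24 ± 0.10) and the fructokinase gene Khk (1.28 ± 0.12) rose.

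Of 27 genes of fatty acid oxidation and ketogenesis 9 rose, 3 fell and 15 had no call (median 0.116, against 2 rises, 11 falls and a median of -0.247 with library totals alone). Under TMM 33.3% rose and 11.1% fell, against 25.9% each way among all genes tested. Acot1 (-1.78 ± 0.24) and Acot2 (-0.62 ± 0.13) fell, and Cpt2 (0.67 ± 0.074) rose, though not with library totals alone. In the respiratory chain 32 of 77 genes rose and 3 fell (median 0.209, against 6 rises, 14 falls and a median of -0.156 with library totals alone). Its extremes were 2 tissue-restricted subunits of cytochrome oxidase, Cox7a1 (3.10 ± 0.16) and Cox6b2 (-1.93 ± 0.20).

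Genes of contacts between cells and with the basement membrane had more rises than falls with TMM. Of 23 tight junction genes 12 rose and 3 fell, with a median of 0.240, against 5 rises, 7 falls and a median of -0.124 with library totals alone. Under TMM 52.2% rose and 13% fell, against 25.9% each way among all genes tested. Claudin genes differed: the pore-forming Cldn2 fell (-0.69 ± 0.074), and Cldn4 (1.86 ± 0.21), Cldn3 (1.26 ± 0.17) and Cldn15 (0.69 ± 0.076) rose, the last not with library totals alone. The polarity gene Pard3 (-0.21 ± 0.080) and Cgnl1 (-1.31 ± 0.19), a paralogue of cingulin, fell, but Pard3 did not pass without any 1 of the 5 mice (edgeR adjusted p = 0.0727 to 0.118). Of 6 keratin genes 5 rose, Krt20 most. Among 38 adhesion and matrix genes 15 rose and 8 fell (median 0.0956, against 5 rises, 13 falls and a median of -0.269 with library totals alone). The TMM counts are 39.5% rises and 21.1% falls, against the same 25.9% each way. The laminin chain gene Lamb2 was at 9.61, 5.73, 9.17, 6.84 and 8.07 CPM in GFP-high and 1.82, 1.94, 2.74, 1.84 and 1.63 CPM in GFP-low cells (-1.97 ± 0.19), and Lamb3 fell as well (-1.52 ± 0.15). GFP-low libraries lay below all GFP-high libraries for both. Itga1 fell (-0.86 ± 0.10), Itga3 rose (0.96 ± 0.095) and the galectin gene Lgals3 had the smallest p (2.96 ± 0.11).

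Genes of ion and water transport outside the solute carriers had more rises than falls with TMM. There were 14 rises and 6 falls among 28 genes (median 0.345, against 8 rises, 11 falls and a median of -0.0194 with library totals alone). Under TMM 50% rose and 21.4% fell, against 25.9% each way among all genes tested. Car4 (2.82 ± 0.11) and Guca2a (2.54 ± 0.17), neither of them a channel gene, rose. The water channels Aqp1 (-1.29 ± 0.090) and Aqp4 (-1.55 ± 0.12) and the potassium channel gene Kcnq1 (-1.38 ± 0.10) fell by more than 2-fold. Of 45 lysosome genes 25 rose and 4 fell (median 0.296, against 7 rises, 14 falls and a median of -0.0686 with library totals alone), led by the proton pump subunit gene Atp6v0d1 (1.43 ± 0.097) and by Ctsc (1.24 ± 0.088).

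Genes of antigen presentation and of the interferon response were divided. Of 10 genes of the MHC class II pathway 8 fell and Rfxank rose (0.41 ± 0.081), with a median of -0.695. With library totals alone Rfxank had no call and 9 fell. Cd74, the invariant chain, was at 136, 165, 374, 75.8 and 159 CPM in GFP-high and 58.8, 91.8, 145, 25.2 and 47.0 CPM in GFP-low cells (-1.35 ± 0.12). Levels differed between mice, highest in mouse 6 and lowest in mouse 7 in both populations, and the groups overlapped. H2-Eb1 (-1.67 ± 0.21) and H2-Aa (-1.66 ± 0.31) fell too. Professional antigen-presenting cells also express these genes: of the 21 myeloid genes 4 were tested, with Cd14 at -0.79 ± 0.14, Itgam at 1.35 ± 0.28, Cd68 at 0.038 ± 0.18 and Lyz2 as above. Their part in the class II falls was not tested. Class I genes rose in 13 of 23 cases and fell in 2 (median 0.398, against 6 rises, 3 falls and a median of 0.0340 with library totals alone), among them H2-T22 (1.26 ± 0.11), H2-D1 (0.75 ± 0.10) and the peptide transporter gene Tap1 (0.76 ± 0.096). Cd1d1 (-1.14 ± 0.23) and H2-Q7 (-0.60 ± 0.17) fell, and B2m (0.040 ± 0.14) had no call. Class I genes are alike in sequence, so reads may be split between them.

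Of 34 interferon-induced genes 23 rose and 4 fell (median 0.600, against 10 rises, 7 falls and a median of 0.236 with library totals alone). Irf7, a regulator of type I interferon, was at 39.4, 35.4, 45.3, 22.9 and 33.0 CPM in GFP-high and 122, 96.7, 113, 77.4 and 136 CPM in GFP-low cells (1.64 ± 0.11). Zbp1 (2.46 ± 0.17), Oasl1 (2.52 ± 0.20) and Oas1a (0.90 ± 0.080) rose as well. Ifitm3, an antiviral membrane protein known to be high in stem cells, was at 633, 686, 683, 812 and 885 CPM against 209.8, 237, 146, 198 and 150.2 CPM (-1.99 ± 0.15), and Ifitm2 (-0.90 ± 0.12) and Gbp6 (-0.81 ± 0.26) fell, Gbp6 not without mouse 6 or 7 (edgeR adjusted p = 0.0675 and 0.105). Irf7 and Ifitm3 each separated the groups, in opposite directions. Ifitm3 is among the most counted members, and the list's summed share of all counts, a measure on the scale of library totals, was lower in 5 of 5 mice, at 0.234 ± 0.021% in GFP-high and 0.128 ± 0.011% in GFP-low libraries (mean ± SD, n = 5).

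Members on both sides carry the interferon-stimulated response element (ISRE), which interferon factors bind. It was searched as GAAA, then 2 letters of any kind, then GAAA, on either strand. Only 25 of the 34 genes had a promoter in the table, which is too few for a share of the list. Of those 25, 16 held the element, which was in 311 of all 8696 genes (3.58%). The median log2 fold change was 0.6 in the 16 genes with the element and 0.577 in the 9 without it. The bases before the start site are shown for the 3 members with the smallest p that held the element there, 1 of which fell, with matched letters in capitals:
Oas1a: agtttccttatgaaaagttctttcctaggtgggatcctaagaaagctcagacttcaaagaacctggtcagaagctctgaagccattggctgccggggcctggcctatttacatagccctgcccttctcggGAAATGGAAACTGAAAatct
Ifitm2: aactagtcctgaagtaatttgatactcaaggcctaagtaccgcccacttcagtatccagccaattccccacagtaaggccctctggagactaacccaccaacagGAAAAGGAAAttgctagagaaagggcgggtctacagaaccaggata
Isg15: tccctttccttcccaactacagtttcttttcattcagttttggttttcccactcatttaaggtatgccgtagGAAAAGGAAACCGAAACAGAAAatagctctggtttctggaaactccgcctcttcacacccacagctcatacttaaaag
All 3 are on the minus strand, at chr5:120907526-120907675, chr7:140955962-140956111 and chr4:156200819-156200968 of GRCm38.p6. Their log2 fold changes were 0.90 ± 0.080, -0.90 ± 0.12 and 1.68 ± 0.23.

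Genes of apoptosis gave 17 rises and 8 falls among 38 (median 0.0936, against 7 rises, 14 falls and a median of -0.271 with library totals alone). Under TMM 44.7% rose and 21.1% fell, against 25.9% each way among all genes tested. The death receptor gene Fas rose by 2.197 ± 0.20 and Bad by 0.92 ± 0.082, while Trp53 (-0.86 ± 0.088) and Bcl2 (-0.82 ± 0.12) fell. Genes of the immediate early and stress response, which dissociation and sorting can raise, rose in 29 of 35 cases and fell in 2 (median 0.895). Their medians within mice were 0.392, 0.740, 0.651, 1.07 and 1.55, larger in mice 7 and 8. Btg2 (1.56 ± 0.16), Fosl1 (2.00 ± 0.21) and Klf6 (1.33 ± 0.17) were among the rises, and the chaperone genes Hsph1 (-0.42 ± 0.093) and Hspe1 (-0.21 ± 0.080) fell. Hspe1 did not pass without mouse 1, 6, 7 or 8 (edgeR adjusted p = 0.0837 to 0.149). The part of handling in these values was not tested.

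Some changes were almost the same in every mouse. Among well-expressed genes shown to change by more than 2-fold, the 5 with the smallest spread between mice were Ms4a8a, Nap1l1, Pfkp, Mpi and Slc12a2. Ms4a8a, a membrane protein gene, had GFP-low minus GFP-high differences of 2.51, 2.60, 2.52, 2.50 and 2.65 in log2 CPM. Nap1l1, a histone chaperone, had -1.34, -1.07, -1.27, -1.25 and -1.28, and Pfkp, the platelet-type phosphofructokinase, 2.49, 2.28, 2.55, 2.45 and 2.37. Mpi, the mannose phosphate isomerase that feeds glycosylation, had 1.19, 1.08, 1.28, 1.28 and 1.36 and Slc12a2 -1.52, -1.60, -1.77, -1.71 and -1.75. Slc12a2 is also in the stem list. These genes were chosen for their small spread, which is a description.

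The difference between the populations was compared with that in 5 Itgb7-/- mice by an interaction over all 20 libraries. None of 11296 genes passed (0%) in edgeR, with a lowest adjusted p of 0.648, and 777 (6.88%) had an unadjusted p under 0.05. DESeq2 called 5 genes, Chst4, Spry2, Pigt, Nfkbib and Psmb4, each with an adjusted p of 0.0496. The 5 smallest p in edgeR were those of Spry2, Uri1, Egfl7, the unnamed model Gm42467 and Pitx1. Spry2, a brake on receptor kinases, had a log2 fold change of 0.18 in wild-type and -0.43 in Itgb7-/- mice, Egfl7 -1.52 and -0.015, and Pitx1 -0.099 and 1.71. A p that misses the threshold does not show that the genotypes were alike.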

How the data were processed

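Expected counts per gene, deposited by the authors in 1 table per population, were the input. TopHat2, Bowtie2, RSEM and mm10 appear in the submitters' processing notes without versions or roles, and strand is not given in the sources used here. Of the wild-type values 13.6% were not whole, and all were rounded. The tables held 11746 (GFP-high) and 11779 (GFP-low) entries, and 12 shared names were spoiled into dates. Names held by one table alone were not used here.

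Counts were filtered by filterByExpr (minimum count 10) and scaled by TMM in edgeR 4.0.16 (R 4.3.3, limma 3.58.1), then fitted by quasi-likelihood with mouse as a block and tested for population, with Benjamini-Hochberg adjustment. Changes over 2-fold were tested with glmTreat. The interaction with genotype used all 20 libraries. The script was tested on simulated data. The rule of the comparison pairs libraries by mouse number. As a check, deviations from the population means correlated at 0.16 to 0.627 within mice and -0.411 to 0.147 between mice, and each library correlated best with its own number. The labels do not say that equal numbers are 1 animal. With the block, p-values rest on how far the difference between populations varied from 1 mouse number to another in these samples.

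The members and gene lists were chosen with earlier results of these data known, and lists are described by counts and medians without a test. Named genes are up to 5 members of a list with the smallest p, called members against the majority (up to 3), defining members, the 10 largest rises and falls (over 2-fold, same direction in 5 mice, mean log2 CPM at least 3), the 5 of smallest spread (mean log2 CPM at least 5), the 5 highest per population and the 5 smallest p of the interaction. Others (paralogues, junction, isozyme and channel genes) were chosen after their values were seen, and some genes that the rule names are not reported here. Alternatives were other scalings and filters, DESeq2 1.42.0, no block and each mouse left out. Depth was similar between libraries and limits genes of a few CPM most.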

Additional observations from a re-analysis of the deposited data

Results flagged for a closer look

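In 127 groups of 5 values tested (genes shown by mouse, shares of counts and list medians), 5 had 1 mouse far from the other 4. Chance alone gives about 1 in 20, so 5 of 127 groups is no more than chance gives. Slc6a19 in GFP-low cells was at 38.9 CPM in mouse 6 and at 17.1 to 21.2 CPM in the others. Lamb2 in GFP-low cells was at 2.74 CPM in mouse 6 and at 1.63 to 1.94 CPM in the others. The median difference of the microvillus list was 0.801 in mouse 6 against 0.472 to 0.533 elsewhere, and that of the Wnt target list was -1.63 in mouse 6 against -1.09 to -0.925. Olfm4 in GFP-high cells was at 3623 CPM in mouse 7 against 2456 to 2714 CPM. Mouse 6 had 4 of the 5 such values. The groups share libraries and some share genes, and whether mouse 6 stood apart was not tested.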

How the results depend on the processing

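With no replicate block, that is without the pairing of libraries by mouse, 4901 genes were called in place of 5845, of which 4877 were called in both fits, and 378 rose and 95 fell by more than 2-fold. That fit ended the calls of 22 named genes, among them Rrm2, Efnb1, Epha2, Errfi1, Dusp6, Edn1, H2-Aa, Acot2, Fosl1 and Hsph1. With library totals alone 1435 genes were higher and 5581 lower, 310 of them lower by more than 2-fold, and 24 named genes lost their call. Of 12 named genes that changed sign 3 had been called, Efnb1 (-0.0093), Psen2 (-0.0063) and Rrm2 (-0.051), and none of the 3 passed after the change. Among the 9 without a call Mgst1 became a fall (-0.33, edgeR adjusted p = 0.0424). The median turned for 12 of 57 lists, among them absorptive factors (-0.069), tight junctions (-0.124), lysosomes (-0.0686), adhesion and fatty acid oxidation. The others were ion and water transport, apoptosis, solute carriers, the respiratory chain, proteasome, mitochondrial ribosome and aminoacyl-tRNA synthetases. These turns follow the shift of all genes under that scaling. DESeq2 size factors (5819 calls), TMM without Paneth and goblet genes (5816), no filter (5845), a minimum count of 100 (5288) and the DESeq2 test (5738) stayed within 1.5 times. Leaving out 1 mouse gave 4915 to 5471 calls, 420 to 540 rises and 100 to 140 falls over 2-fold, and 4428 genes were called in all 5 such fits. Of 299 named genes 233 kept their call and direction in all 13 alternatives. Without mice 3 and 8, chosen after seeing the data, 4322 genes were called. The interaction had 0 calls in each edgeR fit run (scalings, no filter, no replicate block, each animal left out), and the DESeq2 test called 5; the cause was not tested. The within-mouse ratio of Paneth shares averaged 4.33 (3.12 to 5.05 with 1 mouse left out), of goblet shares 6.2 (5.66 to 6.90), of hormone shares 4.05 (2.85 to 4.65), of tuft shares 1.41 (1.36 to 1.47) and of stem shares 0.244 (0.223 to 0.258). The tuft sum includes Krt8, which is made across the epithelium. Genes of a few CPM rest on few counts, and no call there does not show equal levels.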

Other observations

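Of 32 conjugating enzymes (UDP-glucuronosyl and glutathione transferases) 21 rose and 3 fell (median 0.723), and with library totals alone 16 rose and 10 fell. Gsta4 (3.28 ± 0.11) had the smallest p, and Ugt2b35 (-0.89 ± 0.13) fell. Of 17 aminoacyl-tRNA synthetases 8 rose and 3 fell, with a median of 0.275, against 1 rise, 4 falls and a median of -0.090 with library totals alone. Nars (0.65 ± 0.076) and Tars (0.52 ± 0.078), which charge asparagine and threonine tRNA, rose, and Iars (-0.27 ± 0.078), Qars (-0.28 ± 0.093) and Kars (-0.28 ± 0.11) fell. Iars did not pass without mouse 1 (edgeR adjusted p = 0.0551), nor Qars without mouse 3, 6, 7 or 8 (0.0527 to 0.0978), nor Kars without any of the same 4 (0.074 to 0.158). Neither Nars nor Tars passed with library totals alone. Of 37 proteasome genes 10 rose and none fell (median 0.0649), but with library totals alone none rose, 14 fell and the median was -0.300. The 27% that rose under TMM is near the 25.9% of all genes tested. The immunoproteasome subunits Psmb9 (0.61 ± 0.11), Psmb10 (0.45 ± 0.095) and Psmb8 (0.37 ± 0.082) were among the 10, and none of the 3 passed with library totals alone. Of 75 mitochondrial ribosomal protein genes 6 rose and 13 fell (median 0.0159, against 1 rise, 40 falls and a median of -0.349 with library totals alone). Under TMM 8% rose and 17.3% fell, both below the 25.9% each way of all genes tested. Of 34 histone genes 8 fell and 1 rose (median -0.209, -0.562 with library totals alone), with macroH2A, H2afy, at -0.38 ± 0.075 and Hist1h2bc at 0.63 ± 0.11 (no call with library totals alone). With that scaling 19 histone genes fell. Under TMM 23.5% of them fell, near the 25.9% of all genes tested. Reads of near-identical histone genes may be split between them.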
